A study of Mus musculus with 64 samples.

Results

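The comparison described here is that of aspirin plus troglitazone with continued TNF in 3T3-L1 adipocytes, a mouse fibroblast line turned into fat cells in culture. It was made between the 21 arrays whose titles name TNF+ASA+TGZ, here called the combination, and the 21 arrays whose titles name TNF without ASA or TGZ. These 42 of the 64 arrays of the series were chosen by title alone. The remaining 22 arrays are titled vehicle and enter below as a further level. All 3 groups were fully differentiated cells taken between days 8 and 12 of differentiation, and the design text states that cultures were grown and harvested independently. Combination cultures had 48 h of TNF at 3 ng/ml and then 24 h of 5 mM ASA with 10 µM TGZ. TNF cultures had 48 h of TNF and then 24 h more of it at 3 ng/ml. Vehicle cultures ended with 24 h in medium with 0.2% albumin, and the source text of these arrays also describes 48 h of TNF before that, so whether they had received TNF is not settled by the labels. The labels list ASA and TGZ without TNF for the last 24 h of the combination but speak of co-treatment. Adding the drugs and removing TNF therefore cannot be told apart in this comparison. The 2 drugs were given only together, so the part of either alone cannot be told apart from that of the other.

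TNF is a cytokine of inflamed fat tissue that lowers the response of fat cells to insulin and lowers many genes of lipid storage. ASA and TGZ were read as acetylsalicylic acid and troglitazone. Aspirin blocks cyclooxygenases, and at high concentrations salicylates also inhibit the IκB kinase that activates NF-κB, the main transcription factor below the TNF receptor. Troglitazone is a thiazolidinedione, a ligand of PPARγ, the nuclear receptor that drives fat cell differentiation and insulin sensitivity. These are statements of background, and none was measured on these arrays.

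On each array the RNA of a culture, labelled with Cy5, was set against a Cy3-labelled pool from untreated differentiated 3T3-L1 cells, both from 20 µg of total RNA. The values are deposited log ratios of 6963 features, and the dyes make culture over pool their likely direction. The base of the log was taken as 2 for any fold, and sizes are otherwise given in log units. Levels against the pool are not read here, because most features average close to 0 over the vehicle arrays, as centred values would. Features carry plate and well positions as names, such as MSK14n15. None (0 of 6963) matched a mouse gene identifier or a miRNA name in the RefSeq tables at hand. Features are therefore described by identifier, and no gene, pathway or cell marker could be assigned. Combination array 13 stood apart with an SD of 0.626 over its features, where the combination arrays had a median SD of 0.441 and a range of 0.367 to 0.626. The TNF arrays had a median of 0.416 and a range of 0.265 to 0.557, with array 15 highest. Vehicle arrays 6 and 17 stood further apart, with SDs of 0.600 and 0.593 where the vehicle median was 0.217. They enter the fit and each comparison with vehicle.

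Many features differed between ASA with TGZ and continued TNF, about as many upwards as downwards, and most by small amounts. In limma, 1724 features (24.8% of those tested) differed between the combination and TNF at an adjusted p under 0.05. They split into 838 higher in the combination (12.0%) and 886 lower (12.7%). The count was 1708 without combination array 13, 1724 without TNF array 15 and 1852 without vehicle arrays 6 and 17. Group membership accounted for 3.82% of the variance over the 42 arrays in the median feature, and for 25.2% in the median feature among the higher and 31.9% among the lower. The higher and lower features were chosen by this difference in these arrays, so their larger shares follow in part from the choice. The arrays of a group were taken as independent in this fit, although some deviated together, with a correlation across features of up to 0.816 between a pair of combination arrays and 0.693 between a pair of TNF arrays, and p-values are too small where arrays of a group share a source.

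The 2 features with the highest t separated the groups fully. MSK14n15 ranged from 0.11 to 1.2 with a median of 0.78 in the combination arrays, against -0.74 to -0.14 with a median of -0.44 in the TNF arrays. Every combination array lay above every TNF array. The difference was 1.12 (SE 0.0713, n = 21 each, adjusted p = 1.36e-20 in limma), or 2.18-fold at base 2, and the group accounted for 82.0% of the variance. MSK30c12 ranged from 0.03 to 1.24 with a median of 0.81 in the combination, against -1.01 to -0.27 with a median of -0.55 in TNF, again with no overlap. Its difference was 1.27 (SE 0.0833, n = 21 each, adjusted p = 3.29e-20 in limma), or 2.42-fold. With the 42 arrays alone the adjusted p in limma was 1.47e-14 for MSK14n15 and 1.1e-14 for MSK30c12. Both features passed the vehicle level. MSK14n15 was 0.67 higher in the combination than in vehicle, where it ranged from -0.30 to 0.22 (adjusted p = 2.2e-12 in limma), and 17 of 21 combination arrays lay above the highest vehicle array. MSK30c12 was 0.65 higher in the combination than in vehicle, where it ranged from -0.32 to 0.44 (adjusted p = 8.97e-10 in limma). Above the highest vehicle array lay 13 of 21 combination arrays. TNF minus vehicle was -0.46 for the first and -0.63 for the second, and both passed the test (adjusted p = 1.61e-07 and 3.05e-09 in limma).

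The 2 features with the lowest t were low in the combination and near the vehicle level in TNF. MSK19j13 ranged from -1.67 to -0.17 with a median of -0.92 in the combination arrays, against -0.46 to 0.42 with a median of 0.17 in the TNF arrays. All 21 combination arrays lay below the TNF median and 19 below the lowest TNF array, so the groups overlapped in 2 combination arrays. The difference was -0.96 (SE 0.0903, n = 21 each, adjusted p = 2.56e-13 in limma). MSK03j2 ranged from -1.16 to -0.36 with a median of -0.71 in the combination, against -0.67 to 0.35 with a median of 0.00 in TNF. All 21 combination arrays were again below the TNF median, with 13 below the lowest TNF array. Its difference was -0.70 (SE 0.0711, n = 21 each, adjusted p = 2.9e-12 in limma). With the 42 arrays alone the adjusted p in limma was 1.08e-10 for MSK19j13 and 3.67e-10 for MSK03j2. Against vehicle the combination was lower by 0.84 in MSK19j13 (-0.84, adjusted p = 2.94e-12 in limma) and by 0.72 in MSK03j2 (-0.72, adjusted p = 1.15e-13 in limma). TNF minus vehicle was 0.12 in MSK19j13 (adjusted p = 0.262 in limma) and -0.02 in MSK03j2 (adjusted p = 0.828 in limma), neither past the threshold. Without vehicle arrays 6 and 17 the combination minus vehicle was 0.65 in MSK14n15 and in MSK30c12, -0.84 in MSK19j13 and -0.72 in MSK03j2.

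**Figure D1:**
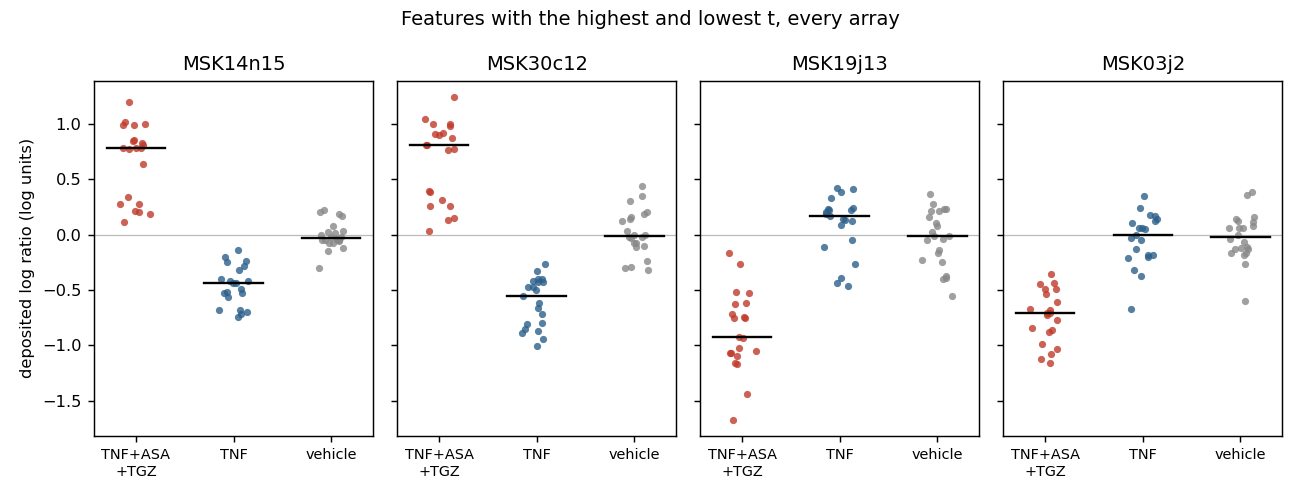
Deposited log ratio (vertical axis, log units) of the 2 features with the highest and the 2 with the lowest t, one panel each; every point is an array, in the order TNF+ASA+TGZ (21), TNF (21) and vehicle (22), and bars mark medians. In MSK14n15 and MSK30c12 the combination lies wholly above TNF and falls into an upper and a lower cloud; in MSK19j13 and MSK03j2 it lies below, with some overlap.

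Falls were larger at the median and rises had the longer tail. The median difference was 0.32 among the 838 higher features, with quartiles of 0.23 and 0.39, and -0.36 among the 886 lower features, with quartiles of -0.46 and -0.26. Differences of 0.25 or more made up 68.1% of the higher and 77.4% of the lower features. At 0.75 or more, 1.68-fold at base 2, there were 36 higher and 9 lower features, or 4.30% of the higher and 1.02% of the lower. The 5th to 95th percentile ran from 0.16 to 0.70 for the higher and from -0.60 to -0.18 for the lower. The extremes were 1.48 and -1.05.

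The intervals bound many of the features that were not called. The median SE over all features was 0.0781 and the median 95% confidence interval reached 0.156 to either side of the estimate. For 3233 features (46.4%) the whole interval lay within 0.25 log units on either side of 0. Of the 5239 features without a call, 3208 (61.2%) were bounded in this way, while the intervals of 81 reached 0.5 or beyond. Among called features, 19 of the higher and 6 of the lower were also bounded within 0.25.

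**Figure D2:**
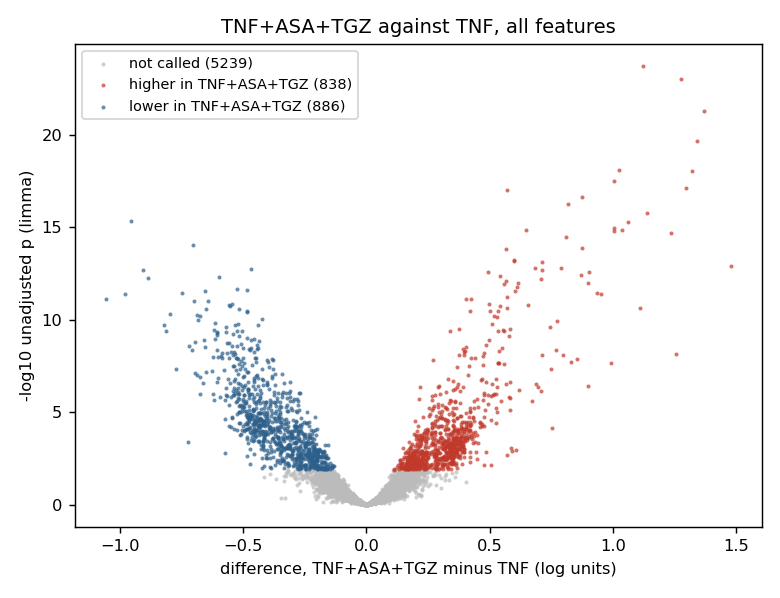
Difference of each of the 6963 features between TNF+ASA+TGZ and TNF (horizontal axis, log units) against the negative log10 of its unadjusted p in limma (vertical axis). The 838 features called higher reach further from 0 than the 886 called lower, with the farthest at 1.48 and -1.05.

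Most called features overlapped between the groups array by array. A typical higher feature had 17 of the 21 combination arrays above the TNF median, and a typical lower feature had 19 of the 21 below it (medians over features). All 21 combination arrays lay past the TNF median in 76 higher features (9.07%) and 155 lower features (17.5%). These counts, and those by same number below, are among features called on the same values and only describe those features. The combination and TNF arrays did not overlap at all in 9 features, all higher, which is 0.129% of those tested, against 0.00% lower. These 9 differed by 0.56 to 1.27, and the gap between the lowest combination and the highest TNF array was 0.02 to 0.30. The combination was called higher than vehicle in 9 of 9, against 28.8% of all features. TNF was called lower than vehicle in 5 of the 9, against 32.0% of all features, and higher in 1, against 27.0%. These counts describe the 9 only, since they were chosen for high combination and low TNF values, which are the values set against vehicle here. Taking arrays of the same number side by side, which the labels do not call pairs, the combination was higher in all 21 numbers for 57 higher features and lower in all 21 for 68 lower features.

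The called features were then chosen in some arrays and measured in others. The arrays were divided by replicate number into 1 to 11 and 12 upwards, a division known from earlier results of these data, and each part was fitted alone. In numbers 1 to 11, 391 features were called higher and 673 lower (15.3% of those tested together). In numbers 12 to 21 the 391 had a median difference of 0.28, against 0.36 where they were chosen, and 95.9% kept the sign, where 50.8% of all features had that sign. The 673 had a median of -0.35, against -0.46 where chosen, and 97.5% kept the sign, where 49.1% of all features had it. At an unadjusted p under 0.05 in the same direction, limma found 247 of the 391 (63.2%, with 11.5% over all features) and 519 of the 673 (77.1%, with 12.3% over all features). In the opposite direction it found 0 and 2.

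The reverse choice gave sizes of the same order. Numbers 12 to 21 alone called 471 features higher and 413 lower (12.7% of those tested together). Measured in numbers 1 to 11, the 471 had a median of 0.30, against 0.42 where chosen, and 98.5% kept the sign, where 53.0% of all features had it. The 413 had a median of -0.47, against -0.42 where chosen, and 99.5% kept it, where 46.9% of all features had it. At an unadjusted p under 0.05, 296 of the 471 (62.8%, with 12.5% over all features) and 379 of the 413 (91.8%, with 15.8% over all features) passed in the same direction, and 0 in the opposite one. Falls chosen in numbers 12 to 21 were at the median as deep in numbers 1 to 11. Falls chosen in numbers 1 to 11 were shallower in numbers 12 to 21. Rises were smaller in the arrays that had not chosen them under either choice. Of all features, 1 (0.0144%) had a difference between the combination and TNF that limma called unequal between numbers 1 to 11 and numbers 12 upwards.

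**Figure D3:**
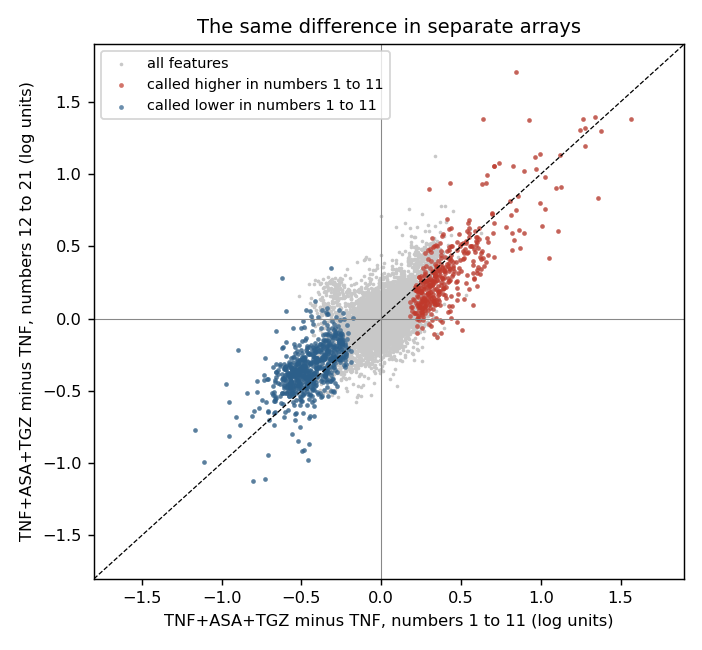
Difference between TNF+ASA+TGZ and TNF in numbers 1 to 11 (horizontal axis, log units) and in numbers 12 to 21 (vertical axis, log units); each point is a feature, red and blue points were called higher or lower in numbers 1 to 11, and the dashed line marks equality. The red points have a median of 0.28 and the blue points of -0.35 on the vertical axis, which did not choose them.

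Placed on features chosen in the other part, the arrays of the combination and of TNF did not overlap within a part. In numbers 1 to 11 the combination arrays were widely spread. For each array the mean of the lower features was subtracted from the mean of the higher features. In arrays 12 to 21 this value ran from 0.33 to 0.70 with a median of 0.53 in the combination and from -0.24 to 0.06 with a median of -0.17 in TNF. In the vehicle arrays numbered 12 upwards it ran from -0.16 to 0.11 with a median of -0.03. In arrays 1 to 11 it ran from 0.03 to 1.14 with a median of 0.69 in the combination and from -0.44 to -0.06 with a median of -0.30 in TNF. The vehicle arrays 1 to 11 ran from -0.22 to 0.19 with a median of 0.01. The SD among combination arrays was 0.351 in arrays 1 to 11 and 0.106 in arrays 12 to 21, against 0.131 and 0.0898 in TNF. Combination arrays 10, 4 and 7 were the lowest at 0.03, 0.09 and 0.14, which lies within the range of the vehicle arrays, while combination array 1 was the highest at 1.14. Without array 10, 4 or 7 the number of called features was 1738, 1729 and 1721.

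**Figure D4:**
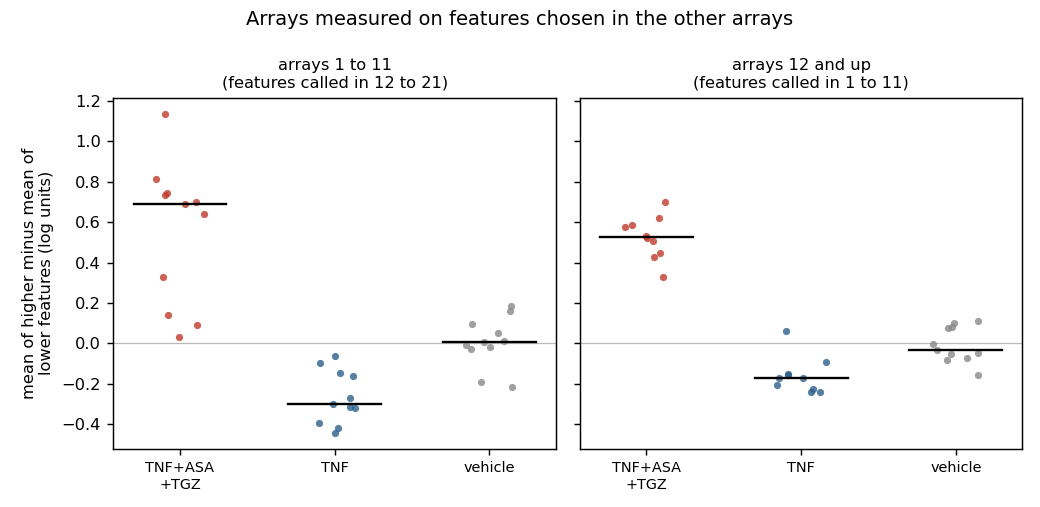
Mean of the features called higher minus mean of those called lower (vertical axis, log units) in every array, with the features chosen in the other part of the replicate numbers; left, arrays 1 to 11, right, arrays 12 and up, in the order TNF+ASA+TGZ, TNF and vehicle, with bars at medians. Combination arrays 1 to 11 spread from 0.03 to 1.14, and those from 12 to 21 lie between 0.33 and 0.70.

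Called features came from every collection and plate printed on the array. Of the 6664 MSK features 786 (11.8%) were higher and 863 lower in the combination. Of the 194 MMC features 39 (20.1%) were higher and 14 (7.22%) lower (27.3% in all). Their median difference was 0.08, against 0.00286 in MSK. Of the MMC features, 24 lie in row b of plate 1 and are met again below. Of the 73 IRchip features 8 were higher and 5 lower (17.8% in all), and of the 32 HuM features 5 were higher and 4 lower (28.1%). The features that differed by at least 1 log unit numbered 15 in MSK, 3 in IRchip and 0 in MMC and HuM. Among the 26 MSK plates, of 219 to 299 features each, the share called had a median of 24.5%, from 18.7% on plate 05 to 37.6% on plate 03. By well row it ran from 18.2% in row h to 32.7% in row g, and by well column from 19.9% to 32.0%. With well-row means removed from every array 1924 features were called.

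The level of these features in vehicle shows where the combination left them. Each of the following comparisons shares arrays with the others, and the choice of features by combination against TNF favours high combination and low TNF values among the higher features and the opposite among the lower ones. The values are therefore a description. Among the 838 higher features the median combination minus vehicle was 0.30 and the median TNF minus vehicle -0.02. Among the 886 lower features they were -0.17 and 0.24. Over all features the same medians were -0.05 and -0.02. Of the 17 features at least 1 log unit higher in the combination than in TNF, 16 were also called higher than vehicle and 1 had no call, where 28.8% of all features were called higher. In the same 17, TNF was called lower than vehicle in 6 (35.3%), near the 32.0% over all features. It was called higher in 2 (11.8%, with 27.0% over all features) and had no call in 9. Their median was 1.14 for combination minus TNF, 1.24 for combination minus vehicle and -0.07 for TNF minus vehicle. Without vehicle arrays 6 and 17 the same counts were 16 for the combination and 6 and 2 for TNF.

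Most features had a larger SD over the combination arrays than over the TNF arrays, but few or none passed a test of it, depending on the fit. The SD of a feature over arrays had a median of 0.264 in the combination and 0.226 in TNF, and 4831 features (69.4%) had the larger SD in the combination. The share was 79.1% among the higher features, whose median SD was 0.300 in the combination and 0.206 in TNF, and 69.8% among the lower. A limma test of absolute deviations from the group median called 43 features wider in the combination (0.618%) and 0 narrower (0.00%), with 904 wider and 38 narrower at an unadjusted p under 0.05. In a further fit of the same 42 arrays, deviations were taken from the group median within each part of the replicate numbers, with the part as a block. It called 0 features in either direction, with 807 wider and 32 narrower at an unadjusted p under 0.05. The squared deviations gave 83 wider and 0 narrower. The count of 43 depended on single arrays. It was 2 to 20 without any 1 of the TNF arrays other than 4, 15 and 16, and as low as 2 without TNF array 1, 8, 11, 13 or 17. It was 17 to 25 without combination array 4, 6, 7 or 10, and 66 to 78 without combination array 5, 12, 15, 16 or 17. Each part alone gave 0, with 464 wider and 40 narrower in numbers 1 to 11 and 402 wider and 28 narrower in numbers 12 upwards at an unadjusted p under 0.05. Of the 43, 15 were also higher in the combination, where 12.0% of all features were, and 2 lower, where 12.7% were. The other 26 had no call on the mean, and these counts only describe the 43. Combination array 13 was the farthest from its group median in 21.8% of all features, and without it 45 features were called wider. TNF had such arrays too, with array 15 the farthest in 17.5% and array 16 in 14.1% of all features. Without TNF array 15 or 16 the test called 47 and 50 features wider.

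MSK31c24 had the largest t in the test of spread. It ran from -0.78 to 0.32 in the combination arrays, against -0.40 to 0.10 in the TNF arrays, with SDs of 0.370 and 0.114 (n = 21 each). Combination arrays lay on both sides of TNF, 9 below the lowest and 4 above the highest TNF array. Its mean absolute deviation was larger in the combination by 0.25 (SE 0.0422, adjusted p = 0.0036 in limma). With deviations taken within the parts and the part as a block, it was not past the threshold (adjusted p = 0.0552 in limma). Its mean was lower in the combination by an amount that missed the threshold (-0.09, adjusted p = 0.596 in limma). In vehicle its SD was 0.422, with a lowest value of -1.75 in array 18 and the next at -0.32.

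The combination arrays fell into 2 ranges for the features that rose most clearly, as the plot of the 4 named features shows. This was seen in the values and is described without a test. In MSK14n15, 7 combination arrays lay between 0.11 and 0.34 and the other 14 between 0.64 and 1.2, so that the gap of 0.30 exceeded the next largest of 0.18. In MSK30c12, 8 lay between 0.03 and 0.39 and 13 between 0.76 and 1.24, with a gap of 0.37 against a next largest of 0.20. The 7 low arrays of the first feature, numbers 2, 4, 7, 10, 14, 16 and 21, were all among the 8 of the second, which added number 15. They come from both parts of the replicate numbers. The 2 features sit on different plates, 14 and 30. The order was another in MSK19j13, where arrays 16 and 14 were the lowest of all, at -1.67 and -1.44, and arrays 10 and 7 the highest.

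Many features shared this order of the combination arrays. A correlation of at least 0.8 with MSK14n15 over the 21 combination arrays was reached by 81 features, and by 0 over the 21 TNF arrays and 1 over the 22 vehicle arrays. For MSK30c12 the numbers were 82, 0 and 1. For the falling MSK19j13 they were 3, 4 and 0, and for MSK03j2 they were 0, 0 and 0. At a correlation of -0.8 or below over the combination, TNF and vehicle arrays there were 0, 0 and 0 features for MSK14n15, 7, 0 and 0 for MSK30c12, 5, 6 and 4 for MSK19j13, and 1, 2 and 0 for MSK03j2. The 81 comprised 67 MSK, 11 MMC, 2 IRchip and 1 HuM features. The 11 MMC features all lay in row b of plate 1, which holds 24 of the 6963 features. Between the combination and TNF 22 of the 81 were called higher (27.2%, with 12.0% over all features) and 1 lower (1.23%, with 12.7% over all features), and the median difference was 0.09. In 73 of the 81 (90.1%) TNF was called lower than vehicle, against 32.0% of all features, and in 0 higher, against 27.0%, with a median of -0.34. Without vehicle arrays 6 and 17 it was lower in 72. Their median SD was 0.308 in the combination, 0.173 in TNF and 0.182 in vehicle, and 78 of the 81 (96.3%, with 69.4% over all features) had a larger SD in the combination than in TNF. A high correlation over the combination arrays with a feature that is widely spread there favours features that vary in the combination, so these SDs and counts are no support for a difference in spread.

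For these 81 features a group mean hides the spread between arrays. Their mean ran from -0.73 to 0.19 with a median of -0.16 in the combination arrays, from -0.58 to -0.25 with a median of -0.40 in TNF and from -0.27 to 0.22 with a median of -0.00364 in vehicle. Of the 21 combination arrays 11 lay above the highest TNF array, 5 within the TNF range and 5 below the lowest TNF array, and 12 lay within the vehicle range. The same 7 arrays lay below the widest gap, between -0.73 and -0.49, and the next, number 15, was at -0.33. That order follows in part from how the features were chosen. Without the 11 MMC features the mean ran from -0.65 to 0.20 in the combination, from -0.50 to -0.23 in TNF and from -0.31 to 0.21 in vehicle. The labels tie neither the 6 collection days nor the 5 passages to arrays, so their part in this pattern was not tested.

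**Figure D5:**
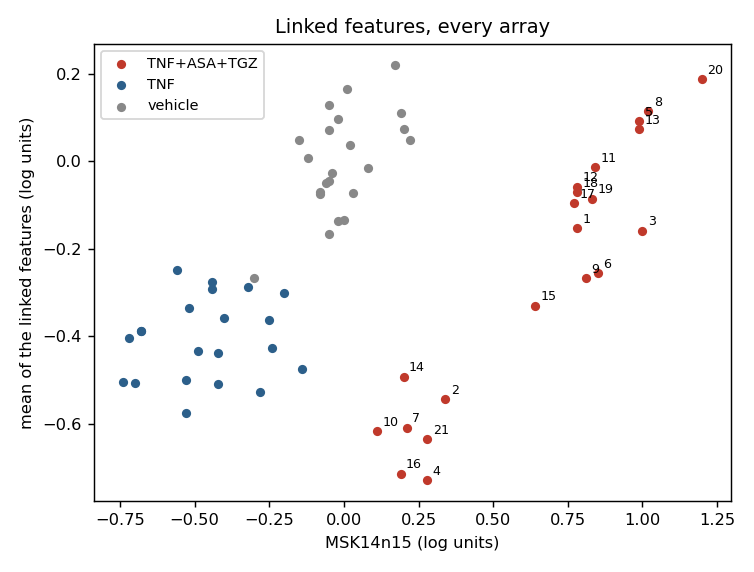
Value of MSK14n15 (horizontal axis, log units) and mean of the 81 features linked to it over the combination arrays (vertical axis, log units) in every array of TNF+ASA+TGZ, TNF and vehicle, with combination arrays marked by their number. Combination arrays 2, 4, 7, 10, 14, 16 and 21 lie between -0.73 and -0.49 on the vertical axis, while their MSK14n15 values of 0.11 to 0.34 all exceed those of TNF.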

How the data were processed

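The deposited table holds log ratios of 6963 features on 64 arrays with 2 colours, with no missing value (0) and no pair of identical arrays (0). The authors' values were read as log2 ratios, with base 2 assumed, and as culture (Cy5) over pool (Cy3) from the dyes in the labels. For the base of the log, background correction, normalization and filters, the entry is: not given in the sources used here. Arrays were grouped by title, and 0 columns were left unused. Group means were fitted to all 64 arrays with limma 3.58.1 in R 4.3.3 (lmFit, eBayes), two-sided, adjusted by Benjamini-Hochberg over all features, threshold 0.05. Spread was tested with limma on absolute deviations from the group median over the 42 arrays. Both were tested on simulated data with independent normal noise of equal SD in the groups before any change was added. That noise leaves out deviations shared between arrays, so the simulation does not bear on p-values where arrays deviate together. Descriptions used Python 3.11.15. Signal over background is unknown, and the number of arrays sets the precision.

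The rule for named features took the 2 with the largest and the 2 with the lowest t, and the largest t in the spread test. With no gene names, the planned gene lists could not be used. The comparison, its lists and the division of the replicate numbers at 11 and 12 were chosen with earlier results of these data known.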

Additional observations from a re-analysis of the deposited data

Results flagged for a closer look

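One feature differed between the parts of the replicate numbers in its difference between the combination and TNF. The limma test of the difference between numbers 12 upwards and 1 to 11 called MSK41f11 alone, 1 of 6963 features (0.0144%). In numbers 1 to 11 the combination arrays averaged -0.48 ± 0.31 and the TNF arrays 0.14 ± 0.34 (SD, n = 11 each). In numbers 12 to 21 the combination arrays averaged 0.35 ± 0.32 and the TNF arrays 0.07 ± 0.21 (SD, n = 10 each). The difference between combination and TNF was therefore -0.62 in numbers 1 to 11 and 0.28 in numbers 12 to 21, and these differed by 0.90 (SE 0.178, adjusted p = 0.0225 in limma). The combination arrays ran from -1.02 to -0.06 in numbers 1 to 11 and from -0.29 to 0.85 in numbers 12 to 21. The TNF arrays ran from -0.55 to 0.61 in numbers 1 to 11 and from -0.35 to 0.41 in numbers 12 to 21. The vehicle arrays averaged 0.08 ± 0.27 and -0.12 ± 0.29 (SD, n = 11 each) in the same order. Over all 42 arrays the feature had no call, with a difference of -0.19 (adjusted p = 0.262 in limma). With a common MAD or quantile normalization 0 features passed this test, so the call depends on the scaling.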

How the results depend on the processing

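The 4 named features kept their sign and stayed past the threshold under all settings run. They were chosen for the highest and lowest t in these same arrays, which made this outcome likely beforehand. Leaving out each of the 42 arrays gave 1645 to 1746 called features, 795 to 858 higher and 849 to 899 lower, 9 to 12 without overlap, 3106 to 3273 bounded within 0.25, and 2 to 78 called for spread. At an adjusted p of 0.01 there were 542 higher features and 1 for spread. Tested against a change of 1.2-fold, 159 passed, with 78 of them higher and 81 lower. With a common MAD 1299 were called, 597 higher and 702 lower, and after quantile normalization 1349, 612 higher and 737 lower. With the 42 arrays alone 1684 were called, 806 higher and 878 lower. Numbers 1 to 11 alone gave 1064 called, 391 higher, 1854 bounded and 0 for spread, and numbers 12 upwards 884 called, 471 higher, 413 lower, 1466 bounded and 0 for spread, with fewer arrays in each. With deviations taken within the parts and the part as a block, the spread test called 0. After quantile normalization it called 65 (63 wider and 2 narrower), and with squared deviations 83. The difference between the parts called 0 features when arrays had a common MAD, and 0 when they were quantile normalized. The cause of these changes was not tested. A replicate block gave 2038 called features (2035 as a random block) and 41 for spread, and changed no named call. Same-numbered arrays of the 2 groups deviated together with a median correlation of 0.368 (from -0.168 to 0.66), over 0.1 in 18 of 21 pairs, and 9 of 21 combination arrays matched their own number best, and the labels state no pairing, so no pairs were assumed. Without vehicle arrays 6 and 17 there were 1852 called features, 906 higher and 946 lower. That setting and those for the size bound, the overlap and the parts were chosen after seeing the data. Signal over background, which limits dim features, is unknown.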
